A study of Mus musculus with 12 samples.

Results

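Desmosomes are junctions that rivet neighbouring cells together and anchor their intermediate filaments. Their genes were followed through mouse tumours that carry the EWSR1-ATF1 fusion, the oncogene of clear cell sarcoma, a soft tissue tumour that is not an epithelium. The set held 10 of the 55536 genes in the table. They were 4 desmosomal cadherins (Dsg2, Dsg3, Dsc2 and Dsc3), 3 plakophilins (Pkp1, Pkp2 and Pkp3), plakoglobin (Jup), desmoplakin (Dsp) and the desmosomal membrane protein Perp. The genes were chosen by symbol, and the desmogleins Dsg2 and Dsg3 also because they were high in tumours, so their level in tumours is a description and supports nothing.

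RNA was sequenced from 12 libraries. In 5 translocation tumours, labelled HprtCre; Ewsr1-loxP; Atf1-loxP, Cre from the widely active Hprt locus recombines loxP sites placed in the mouse Ewsr1 and Atf1 genes. In 6 Rosa26 tumours, labelled Rosa26-LSL-EWSR1-ATF1, the fusion sits in the Rosa26 locus behind a stop cassette flanked by loxP sites, and the label names no Cre. The remaining library was wild-type skeletal muscle. The tumours had no drug treatment and were frozen once the primary tumour caused illness. The labels used here give neither age nor site. Nothing in them says that the libraries are from different animals, and p-values therefore describe only the spread among these libraries, part of which may be technical. Translocation tumour 1 and the muscle share the number 68 in their titles, and translocation tumours 2 and 5 share the number 18. The titles of Rosa26 tumours 5 and 6 differ only in the last digit.

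Translocation tumour libraries held 2.96 to 21.2 M counts, Rosa26 tumour libraries 6.82 to 21.5 M, and the muscle library 25.04 M. Translocation tumour 2 and Rosa26 tumour 4 were the shallowest, and 3 genes annotated over ribosomal RNA sequence (Gm26917, Gm42418 and Gm23935) took 37.8% and 29.999% of their counts, against 1.34% to 7.38% in the other tumours. A list of 10 skeletal muscle genes took 5.16% of the counts in Rosa26 tumour 1 and at most 0.327% in any other tumour, against 13.1% in muscle. Mlana, a melanocyte gene that human clear cell sarcoma often expresses, had 0 counts in every tumour. The melanocyte genes Mitf and Pmel had counts in each. Others were mostly absent, with at most 2 counts of Tyr and 1 of Tyrp1 in any tumour. Sox10 had 22 counts in Rosa26 tumour 1 and at most 4 in any other tumour. Dct had 0 counts in translocation tumours 2 to 4 and Rosa26 tumours 4 and 5. A list of 7 melanocyte genes, Mlana included, was highest in translocation tumour 5, at 464 CPM (scaled counts per M). There Dct gave 300 and Mitf 163 CPM. The list summed to 9.70 to 40.2 CPM for the remaining translocation tumours. Its range among Rosa26 tumours was 15.7 to 54.9 CPM, and muscle was at 77.8 CPM, of which Mitf alone gave 76.95 CPM. Judged by Xist and genes of the Y chromosome, translocation tumours 1 to 4, Rosa26 tumours 1 and 4 and muscle were female, and the other tumours male. Translocation tumours 2 and 5, which share a title number, thus read as different sexes and not as 1 animal. The libraries are bulk tissue, so fewer cells of a type and less RNA per cell cannot be told apart.

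In a desmosome, the desmogleins and desmocollins span the membrane and bind their partners on the next cell. Inside the cell, plakoglobin and the plakophilins, which are armadillo proteins, bind the cadherin tails, and desmoplakin ties this plaque to keratin or, in heart muscle, to desmin. Dsg2 and Dsc2 are the widespread cadherins of simple epithelia and heart, while Dsg3 and Dsc3 belong to the lower layers of stratified epithelia such as epidermis, where Krt5 and Krt14 form the filaments. Perp is a membrane protein and p53 target that epidermal desmosomes need.

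All 9 genes that could be tested had lower estimates in the translocation tumours, as did 7966 of all 17021 tested genes. Few of the differences of the 9 passed the test. Of these 9, Jup and Pkp1 were called lower and none higher, against 1.56% of all 17021 tested genes called lower and 2.7% called in either direction. The median log2 fold change of the 9 genes was -2.48, against 0.07 for all tested genes. The groups did not overlap for Dsg3, Pkp1 and Jup, against 3.12% of tested genes without overlap in that direction. Pkp2 was left out by the filter on low counts. Dsg2, Dsg3, Dsc2, Dsc3, Pkp1 and Dsp had too few counts in some translocation tumours to pass this filter without the Rosa26 tumours. Their lower estimates and lack of overlap thus follow in part from how they came to be tested. The same holds for list genes near 0 in the translocation tumours, such as Krt8 and Esrp1. With no filter 10 genes of the set were tested and 9 had lower estimates. Fold changes are translocation over Rosa26, from the quasi-likelihood test of edgeR, with p-values adjusted by Benjamini-Hochberg over all tested genes and a threshold of 0.05. Levels are CPM, that is counts divided by library size in M, scaled over the 12 libraries. Leaving out 1 tumour at a time gave 0 to 4 called genes of the set, against 0.378% to 4.27% of all tested genes.

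**Figure D1:**
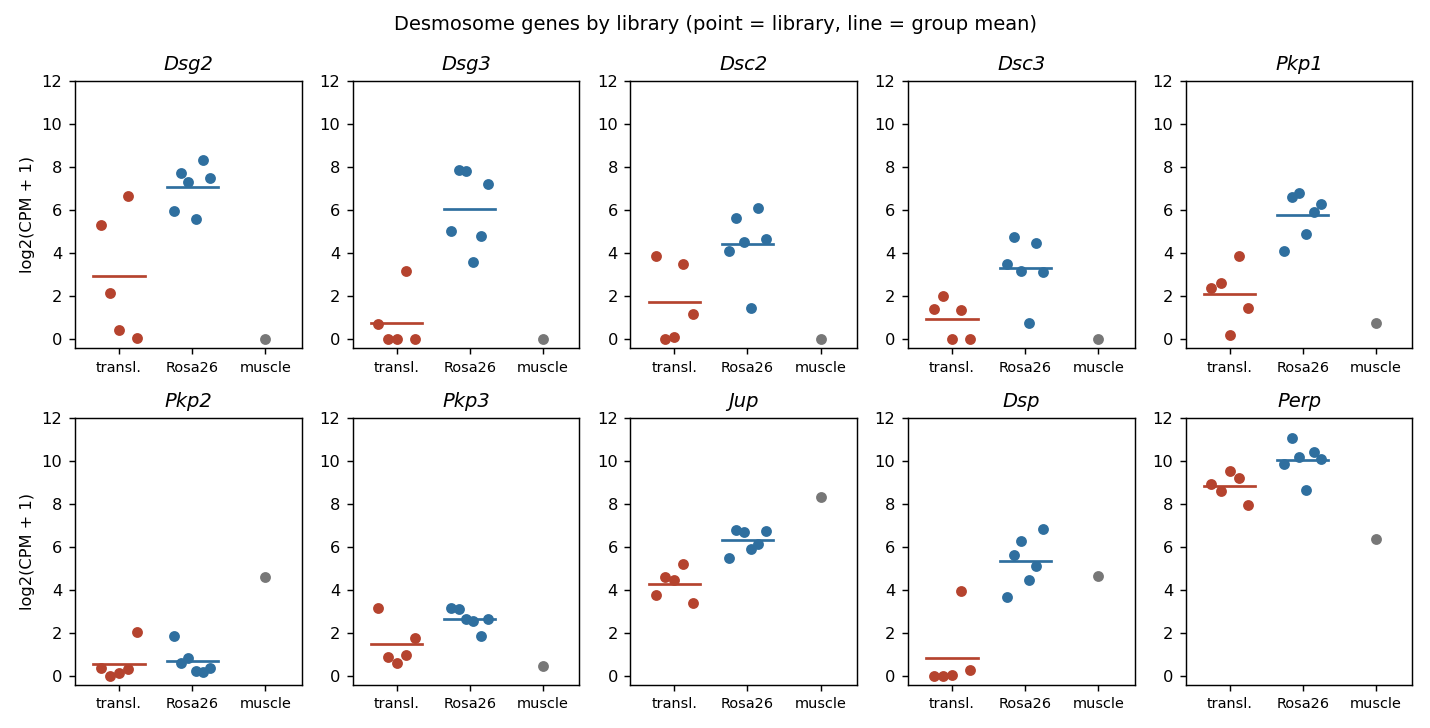
Level of each desmosome gene as log2(CPM + 1) in each library, with translocation tumours (n = 5) on the left, Rosa26 tumours (n = 6) in the middle and muscle (n = 1) on the right. Points are libraries and lines are the means of the plotted values. The cadherins lie at 0 in muscle, while Jup and Pkp2 are higher in muscle than in any tumour, although scaling by library totals puts 1 of 6 Rosa26 tumours above muscle for Jup.

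**Figure D2:**
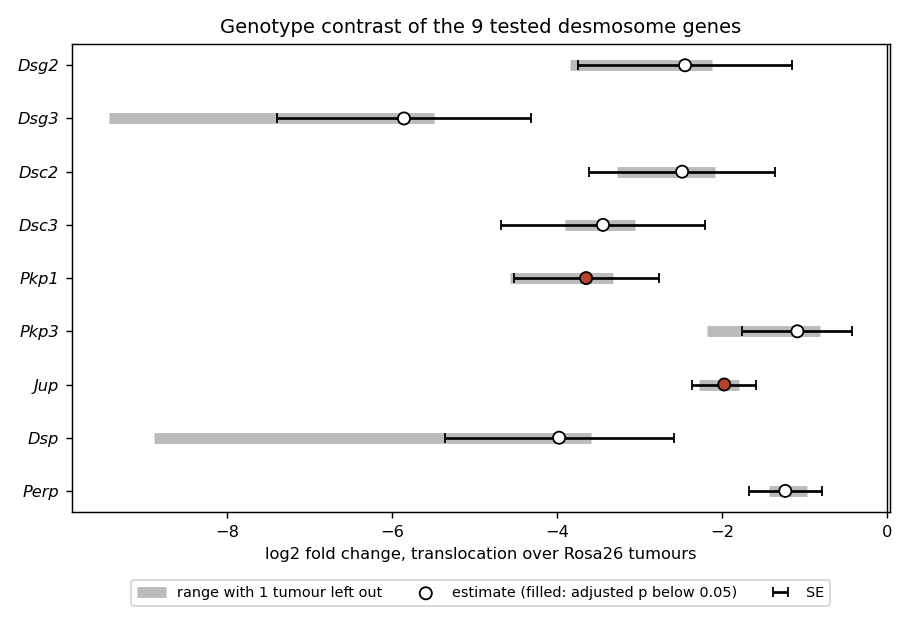
Log2 fold change of the 9 tested genes, translocation over Rosa26 tumours, with the SE (bars) and the range when 1 tumour is left out (grey). Every estimate lies below 0. Filled points, Pkp1 and Jup, have an adjusted p under 0.05, and Dsg3 and Dsp have the longest grey ranges.

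Dsg2, the desmoglein of simple epithelia and heart, ran over a wide range among the translocation tumours. It measured 39.4, 3.50, 0.365, 101.7 and 0.0465 CPM in translocation tumours 1 to 5, against a lowest value of 46.9, a median of 168 and a highest of 320.1 CPM in the Rosa26 tumours. Only translocation tumour 4 reached the range of the Rosa26 tumours, and 4 of 5 lay below it. Means were 29.0 ± 43.9 CPM in translocation tumours and 163 ± 101 CPM in Rosa26 tumours (SD, n = 5 and 6). The log2 fold change of -2.45 (SE 1.30) did not pass the test (edgeR adjusted p = 0.264). The 0.0465 CPM of translocation tumour 5 was 1 count in 21.2 M, which is under the floor of 3 counts.

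Dsg3, the desmoglein of the lower epidermis and the target of autoantibodies in pemphigus vulgaris, separated the groups. It measured 0.672, 0, 0, 8.08 and 0 CPM in translocation tumours 1 to 5, against a lowest value of 11.02, a median of 89.4 and a highest of 233.9 CPM in the Rosa26 tumours. Every translocation tumour lay below every Rosa26 tumour. Even so, the log2 fold change of -5.86 (SE 1.54) missed the threshold (edgeR adjusted p = 0.0607). This value turned on 1 library, since without translocation tumour 4 the log2 fold change was -9.44 (adjusted p = 0.0232). The floor of 3 counts in the shallow translocation tumour 2 was 1.31 CPM, so its 0 counts do not exclude a level such as that in translocation tumour 1.

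Within the Rosa26 tumours the balance of the desmogleins varied. Per length, the ratio of Dsg3 to Dsg2 was 0.619, 1.29, 1.68, 0.279, 0.100 and 0.984 in Rosa26 tumours 1 to 6. By this measure Dsg3 exceeded Dsg2 in Rosa26 tumours 2 and 3 and matched it closely in Rosa26 tumour 6. It was far below Dsg2 in Rosa26 tumour 5, which had the highest Dsg2 of all. The lengths are exon unions, 8268 bases for Dsg2 and 6978 for Dsg3. By the longest transcripts, 5766 and 6212 bases, every ratio would be lower, so ratios near 1 do not settle which gene is higher. In the translocation tumours the ratio was 0.0942 in tumour 4 and 0.0202 in tumour 1, and Dsg3 had 0 counts in the other translocation tumours.

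Dsc2, the desmocollin that pairs with Dsg2 in simple epithelia and heart, was lower than Dsg2 per length in every tumour except translocation tumour 5. It measured 13.8, 0, 0.0812, 10.2 and 1.26 CPM in translocation tumours 1 to 5, against a lowest value of 1.75, a median of 23.4 and a highest of 67.0 CPM in the Rosa26 tumours. The groups overlapped, with Rosa26 tumour 4 lowest in its group. The log2 fold change was -2.48 (SE 1.13, edgeR adjusted p = 0.199). Dsc3, the desmocollin of stratified epithelia, had the lowest mean per length of the cadherins in the Rosa26 tumours. In the translocation tumours Dsg3 and Dsc3 averaged 0.251 and 0.233 CPM per kb, or 0.0241 and 0.217 without tumour 4, so their order turned on that library. It measured 1.63, 3.06, 0, 1.61 and 0 CPM in translocation tumours 1 to 5, against 0.6999 to 25.97 CPM with a median of 9.15 in the Rosa26 tumours. The groups overlapped through Rosa26 tumour 4, and the log2 fold change was -3.44 (SE 1.24, edgeR adjusted p = 0.1204).

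Summed per length, the 4 cadherins gave 7.79, 0.991, 0.0596, 15.7 and 0.244 CPM per kb in translocation tumours 1 to 5, against 16.9, 73.4, 57.0, 7.71, 59.2 and 48.5 CPM per kb in Rosa26 tumours 1 to 6. Translocation tumours 1 and 4 lay within reach of Rosa26 tumours 1 and 4, while the other 3 translocation tumours had at most 0.991 CPM per kb. Translocation tumour 4 was highest of its group in 5 of the 10 genes, and Rosa26 tumour 4 was lowest of its group in 5 of 10.

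**Figure D3:**
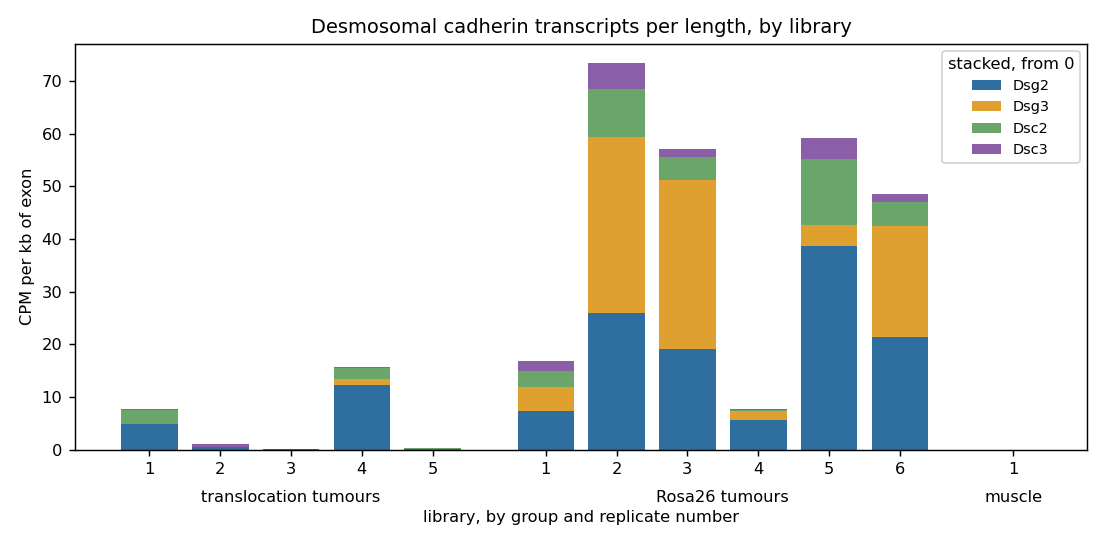
Stacked bars of Dsg2, Dsg3, Dsc2 and Dsc3 in CPM per kb of exon, from 0, for each library. Rosa26 tumours 2, 3, 5 and 6 reach 48.5 to 73.4, no translocation tumour exceeds 15.7, and muscle has no bar since all 4 genes had 0 counts there.

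Jup encodes plakoglobin, the armadillo protein that binds desmosomal cadherins and also enters adherens junctions. It measured 12.5, 23.2, 21.2, 36.5 and 9.44 CPM in translocation tumours 1 to 5, against a lowest value of 44.2, a median of 87.1 and a highest of 111 CPM in the Rosa26 tumours. The groups did not overlap, and the highest Rosa26 value was 2.51 times the lowest, the smallest such ratio of the set. Means were 20.6 ± 10.61 CPM in translocation tumours and 82.6 ± 28.6 CPM in Rosa26 tumours (SD, n = 5 and 6). Jup was called lower in translocation tumours, with edgeR giving a log2 fold change of -1.97 (SE 0.39) and an adjusted p of 0.0275. The call was lost without translocation tumour 1 (adjusted p = 0.0619) and without Rosa26 tumour 3 (0.0810), 5 (0.0556) or 6 (0.0697). Per length, the ratio of Jup to its relative Ctnnb1, beta-catenin, was 0.00946 to 0.0638 in the translocation tumours, 0.107 to 0.191 in the Rosa26 tumours and 0.830 in muscle. Ctnnb1 itself averaged 518 and 476 CPM in the translocation and Rosa26 tumours.

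Pkp1, the plakophilin of stratified epithelia, measured 4.32, 5.25, 0.162, 13.8 and 1.72 CPM in translocation tumours 1 to 5, against a lowest value of 16.0, a median of 67.9 and a highest of 109 CPM in the Rosa26 tumours. The groups did not overlap. The log2 fold change was -3.65 (SE 0.88), with an edgeR adjusted p of 0.0498, just under the threshold. The call held in 3 of 11 fits that left out 1 tumour, those without translocation tumour 3 or 4 or Rosa26 tumour 1. It was lost without translocation tumour 1, 2 or 5 or Rosa26 tumour 2, 3, 4, 5 or 6, with adjusted p up to 0.124.

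Pkp3, the plakophilin found in most epithelia, was low throughout. It measured 7.87, 0.876, 0.528, 0.985 and 2.37 CPM in translocation tumours 1 to 5, against a lowest value of 2.60, a median of 5.31 and a highest of 8.03 CPM in the Rosa26 tumours. Translocation tumour 1 lay within the Rosa26 range, and the log2 fold change of -1.09 (SE 0.67) did not pass the test (edgeR adjusted p = 0.333). Pkp2, the plakophilin of heart and simple epithelia, reached no more than 3.21 CPM in any translocation tumour and 2.66 CPM in any Rosa26 tumour, against 23.3 CPM in muscle. Its highest Rosa26 value was in Rosa26 tumour 1, the Rosa26 library with the most muscle transcript, and the part of that transcript in the value was not tested.

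Dsp encodes desmoplakin, the link to intermediate filaments. It measured 0, 0, 0.0406, 14.6 and 0.233 CPM in translocation tumours 1 to 5, against a lowest value of 11.7, a median of 40.7 and a highest of 112 CPM in the Rosa26 tumours. Translocation tumour 4 alone overlapped the Rosa26 tumours, and the other 4 translocation tumours had at most 5 counts each. The log2 fold change was -3.98 (SE 1.39, edgeR adjusted p = 0.111), and without translocation tumour 4 it was -8.89 (adjusted p = 0.0065).

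The plaque genes Dsp and Jup were the members of the set with an entry in the RefSeq promoter table used here, 2 of 10. Their 250 bases upstream of the annotated start are shown since Jup was called and Dsp was at or near 0 in 4 of 5 translocation tumours. Both are on build GRCm38.p6, printed 5′ to 3′ on the gene's strand, at chr13:38151044-38151293 (plus strand) for Dsp and chr11:100397791-100398040 (minus strand) for Jup. Capitals mark the GC box GGGCGG or its complement.
Dsp: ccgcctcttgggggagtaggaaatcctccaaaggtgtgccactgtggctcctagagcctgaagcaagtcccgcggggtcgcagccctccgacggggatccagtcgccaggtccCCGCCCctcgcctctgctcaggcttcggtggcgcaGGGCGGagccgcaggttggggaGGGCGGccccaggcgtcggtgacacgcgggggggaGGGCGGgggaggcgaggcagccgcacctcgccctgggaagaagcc
Jup: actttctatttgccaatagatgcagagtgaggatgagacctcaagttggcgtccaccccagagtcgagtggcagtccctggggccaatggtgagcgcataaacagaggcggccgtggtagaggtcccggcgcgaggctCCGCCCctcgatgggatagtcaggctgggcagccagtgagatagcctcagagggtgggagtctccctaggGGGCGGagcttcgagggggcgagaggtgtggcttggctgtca

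The Dsp window was 72.4% G and C and the Jup window 62%. On both strands, Dsp held 4 and Jup 2 matches to GGGCGG, which 32.7% of the 32851 promoters in the table held in the same window. This motif was chosen after the sequences were seen. Neither window held the cAMP response element TGACGTCA, which ATF1 binds and which 1.55% of promoters held, or its core TGACG, held by 17.8%. Neither held the E-box CACCTG of the Snail and Zeb factors, present in 17.2% of promoters, or AACCGGTT, the grainyhead motif, present in 0.116%. The core is part of the full element, so these counts overlap.

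Perp was by far the most abundant gene of the set in the tumours. It measured 478, 389, 746, 582 and 249.5 CPM in translocation tumours 1 to 5, against a lowest value of 399, a median of 1128 and a highest of 2146 CPM in the Rosa26 tumours. The groups overlapped through Rosa26 tumour 4, and the log2 fold change was -1.23 (SE 0.44, edgeR adjusted p = 0.1199). Of 12 other p53 targets, all tested, Zmat3 was called lower and none higher, with a median log2 fold change of -0.02. Zmat3, which encodes an RNA-binding protein, averaged 26.7 ± 7.1 CPM in translocation tumours and 70.5 ± 20.4 CPM in Rosa26 tumours (log2 fold change -1.36, edgeR adjusted p = 0.0285). Pmaip1, Bax, Mdm2, Ccng1 and Trp53inp1 had log2 fold changes of -1.75, 0.96, 0.55, -0.31 and -0.05 and were not called.

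Levels of different genes can be ranked per length. In both tumour groups Perp came first, with means of 250.5 and 604 CPM per kb in translocation and Rosa26 tumours, and stood above the next gene in every tumour. In the Rosa26 tumours Dsg2 (19.7), Dsg3 (16.1), Pkp1 (12.9) and Jup (12.8 CPM per kb) followed, and none of these neighbours stood above the next in all 6 libraries. Dsc2 (5.69), Dsp (5.24), Dsc3 (2.28) and Pkp3 (1.56) came next, and Pkp2 (0.143) was below Pkp3 in all 6. In the translocation tumours Dsg2 (3.51) and Jup (3.19) followed Perp, with Jup above Dsg2 in 3 of 5. Pkp1 averaged 1.005 CPM per kb there and lay below Jup in all 5, and the other 6 genes averaged 0.961 CPM per kb or less, without a fixed order. With the length of the longest transcript in place of the exon union, Jup averaged 6.41 and 25.8 CPM per kb in translocation and Rosa26 tumours. These means cannot be ranked against the values above, since other genes, Dsg2 among them, would also rise with that length.

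Muscle had another set of desmosome transcripts. All 4 cadherins had 0 counts in 25.04 M, a floor of 0.293 CPM at 3 counts. Against that floor the mean of the translocation tumours was at least 99.0-fold higher for Dsg2, 5.98-fold for Dsg3, 17.3-fold for Dsc2 and 4.30-fold for Dsc3. Translocation tumours with any counts were 5 of 5 for Dsg2, 2 of 5 for Dsg3, 4 of 5 for Dsc2 and 3 of 5 for Dsc3. Among these, tumour 5 had 1 count of Dsg2 (0.0465 CPM) and tumour 3 had 2 of Dsc2 (0.0812 CPM). Both values are under the muscle floor, so they cannot be placed above muscle. Without translocation tumour 4 the bound was 37.0-fold for Dsg2, and the Dsg3 mean of 0.168 CPM was under the floor, so that no fold is given. The mean of the Rosa26 tumours was at least 556-fold higher for Dsg2, 384-fold for Dsg3, 102.5-fold for Dsc2 and 42.1-fold for Dsc3. Pkp1 and Pkp3 had 7 and 4 counts in muscle. With 1 muscle library there is no test, and these differences are those the genes were partly chosen for.

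Jup, Pkp2 and Dsp were well represented in muscle. Jup was at 9.44 to 111 CPM in the 11 tumours, against 320.4 CPM in muscle, and Pkp2 was at 0 to 3.21 CPM in the tumours, against 23.3 CPM in muscle. Perp was at 249.5 to 2146 CPM in the tumours, against 82.7 CPM in muscle. Here a gene counted only if its mean difference was at least 1 log2 unit and no tumour lay on the other side. By this rule Dsg2, Pkp3 and Perp were higher, against 17.6% of 22184 genes, and Pkp2 and Jup lower, against 17.3%. Dsg2 met the rule in translocation tumour 5 through 1 count, at 0.0465 CPM against a muscle floor of 0.293 CPM. The tumours differed from muscle by a median of 0.38 log2 units over all genes with this scaling and 1.29 with library totals alone. With library totals Jup was above muscle in 1 of 6 Rosa26 tumours. For Dsp, at 24.1 CPM in muscle, the direction turned on the scaling, with 0 of 5 translocation and 4 of 6 Rosa26 tumours above muscle here and 1 of 5 and 6 of 6 with library totals. A list of 5 heart muscle genes summed to at most 9.21 CPM in any translocation tumour and 4.91 CPM in any Rosa26 tumour, against 26.9 CPM in the muscle library. Of that muscle sum Tnnt2 gave 25.2 CPM and Myh6 1.46 CPM, while Nppa and Tnni3 had 1 count each and Myl7 had 0. The part of heart muscle cells in the Pkp2, Jup and Dsp of the muscle library was not tested.

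The desmogleins were noted as high in tumours without basal keratins. That held for Krt5 and Krt15, but Krt14 was present in the tumours with the most Dsg3. Krt5, the basal keratin partner of Krt14, had 0 counts in Rosa26 tumours 2 to 6 and measured 1.39 CPM in Rosa26 tumour 1. In the translocation tumours it reached 4.46 CPM, in tumour 5, where Dsg3 had 0 counts. Krt15 reached 1.66 CPM in translocation tumour 4 and no more than 0.175 CPM in any Rosa26 tumour. Krt14, however, measured 14.8, 9.97 and 14.4 CPM in Rosa26 tumours 2, 3 and 6, the 3 tumours with the most Dsg3, and 11.2 CPM in translocation tumour 4, the translocation tumour with the most Dsg3. It was at most 1.46 CPM in the remaining tumours, and its log2 fold change was -1.55 (SE 1.46, edgeR adjusted p = 0.542), or -7.33 without translocation tumour 4 (adjusted p = 0.0337). Per length, Dsg3 stood at 2.56 to 8.66 times Krt14 in the Rosa26 tumours.

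**Figure D4:**
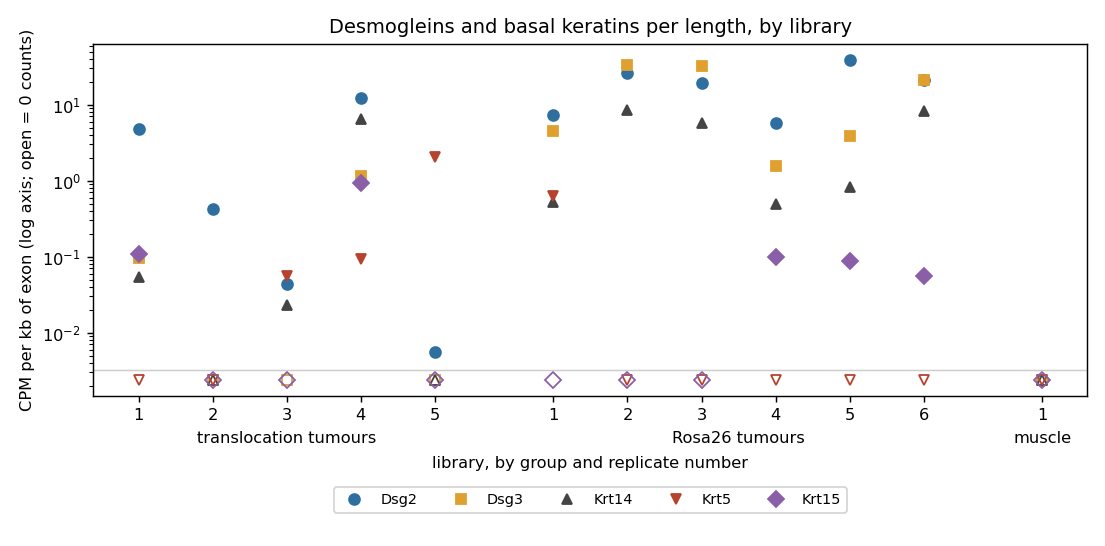
Dsg2, Dsg3, Krt14, Krt5 and Krt15 in CPM per kb of exon on a log axis, by library. Open symbols below the line stand for 0 counts. In the Rosa26 tumours both desmogleins lie above Krt14, and Krt5 is open in Rosa26 tumours 2 to 6.

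Markers of keratinocytes did not move as 1 block. The summed level of 10 keratinocyte genes ran from 5.25 to 17.5 CPM in the translocation tumours, highest in tumour 4, from 6.28 to 46.9 CPM in the Rosa26 tumours, highest in tumour 2, and was 38.2 CPM in muscle, where Trp63 alone gave 34.3 CPM. The difference between the tumour groups lay mostly in Sfn, Krt14 and Col17a1, named here after their values were seen. Sfn, a 14-3-3 protein gene of epithelia, averaged 1.35 ± 0.85 CPM in translocation tumours and 10.7 ± 7.0 CPM in Rosa26 tumours and was called lower (edgeR adjusted p = 0.0466), while Krt14 and Col17a1 were not called. The Sfn call held in only 2 of 11 fits that left out 1 tumour, with edgeR adjusted p up to 0.122. Krt5, Krt15 and Krt10 had higher means in translocation tumours, at 0.959, 0.370 and 2.83 CPM, than in Rosa26 tumours, at 0.231, 0.0711 and 1.75 CPM, and Krt1, Lor and Ivl were near 0 in both. Of its genes, Ivl had 0 counts in every translocation tumour and in muscle, and muscle also had 0 counts of Krt5, Krt14, Krt15, Krt1 and Lor. A covariate was made from the mean log2 CPM of the 10 genes, in which genes near 0 weigh as much as the others. With it edgeR called 15 genes and 0 of the set. In that fit 5 of the 9 had an unadjusted p under 0.05, against 17.5% of all genes. The covariate shares Krt14 with the pattern above, and the part of keratinocytes in the differences was not tested. Rosa26 tumour 5 had the most Dsg2 and the lowest sum of its group.

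Filaments that desmosomes can hold were described by lists. All 5 simple epithelial keratins were tested, and Krt8 and Krt19 were called lower, with a list median log2 fold change of -3.38. Krt8, the type II keratin of simple epithelia, averaged 0.252 ± 0.214 CPM in translocation tumours and 31.5 ± 26.4 CPM in Rosa26 tumours, with no overlap (log2 fold change -7.02, edgeR adjusted p = 0.0133). Krt19 averaged 0.142 ± 0.242 CPM in translocation tumours and 6.15 ± 6.32 CPM in Rosa26 tumours (-5.12, adjusted p = 0.0381). Krt18, the partner of Krt8, was not called, with up to 19.7 CPM in translocation tumour 5 and 1.75 to 48.0 CPM in the Rosa26 tumours. Krt20 and Krt7 had log2 fold changes of -3.38 and -2.27 without a call, and Krt20 averaged 6.10 and 63.0 CPM in translocation and Rosa26 tumours. None of 5 other intermediate filament genes was called by edgeR or DESeq2, and 0 had an unadjusted p under 0.05. Vim, vimentin, averaged 668 and 613 CPM in translocation and Rosa26 tumours, and Synm and Lmna averaged 202 and 200.3 CPM in translocation tumours and 450.4 and 307 CPM in Rosa26 tumours. Des, desmin, reached 697 CPM in Rosa26 tumour 1, which held muscle transcript, against 15939 CPM in muscle.

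Relatives of the set and proteins of the cornified envelope were mostly low. Of 6 other desmosomal cadherins and plakophilins, 2 were tested and Dsg1b was called lower, at 0.0192 ± 0.0429 CPM in translocation tumours and 2.74 ± 2.29 CPM in Rosa26 tumours (log2 fold change -6.98, edgeR adjusted p = 0.0155). Dsg1a, Dsg1b and Dsg1c are near-identical copies that can share reads, so which of them this is remains uncertain. Pkp4, which also serves adherens junctions, averaged 101 and 165 CPM in translocation and Rosa26 tumours and was not called. Of 10 suprabasal and cornified envelope genes 6 were tested and 0 were called by edgeR or DESeq2, with 1 at an unadjusted p under 0.05. Evpl, envoplakin, and the transglutaminases Tgm3 and Tgm1 had log2 fold changes of -2.03, -2.36 and -0.54, and Krt10 of 0.74.

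Junctions that sit beside desmosomes were read the same way. Of 13 adherens junction genes 12 were tested and Cdh1 was called lower, with a list median log2 fold change of -0.26. Cdh1, E-cadherin, averaged 2.43 ± 2.83 CPM in translocation tumours and 62.6 ± 61.5 CPM in Rosa26 tumours, with no overlap (log2 fold change -4.59, edgeR adjusted p = 0.0321). Cdh3, P-cadherin, missed the threshold (-3.11, adjusted p = 0.0505). Cdh5, Nectin1 and Cdh11 had log2 fold changes of -1.46, -1.11 and 0.73, and Ctnna1, Ctnnb1, Vcl and Afdn lay between -0.26 and 0.16, all without a call. Of 11 tight junction genes 7 were tested. Of these, edgeR called 0, with 3 at an unadjusted p under 0.05. Over all 11 genes DESeq2 called 3, which were Cldn3, Tjp3 and Cldn7, and Cldn7 was not among those tested by edgeR. The edgeR log2 fold changes were -3.14 for Cldn3, -2.07 for Tjp3, 3.02 for Cgn and -0.35 for Tjp1. Cgn and Tjp1 were not called under any setting.

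Hemidesmosomes anchor epithelial cells to the basement membrane. All 9 genes of this list were tested and 2 were called lower, among them Lama3, a laminin chain, with a list median log2 fold change of -1.94. Lama3 averaged 5.20 ± 4.66 CPM in translocation tumours and 44.3 ± 24.3 CPM in Rosa26 tumours (-3.04, edgeR adjusted p = 0.0276). Dst, Cd151 and Plec had log2 fold changes of -1.11, 1.08 and -0.83 without a call.

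Of 11 regulators of epithelial identity 6 were tested and Esrp1, Epcam and Ovol2 were called lower, with a list median log2 fold change of -3.46. Esrp1, a splicing factor of epithelial cells, had 0 counts in all 5 translocation tumours and averaged 8.999 ± 7.31 CPM in Rosa26 tumours (edgeR adjusted p = 0.0275). Epcam averaged 0.508 ± 0.526 CPM in translocation tumours and 22.3 ± 20.5 CPM in Rosa26 tumours (log2 fold change -5.37, adjusted p = 0.0285). Ovol2, a repressor of mesenchymal genes, averaged 0.332 ± 0.556 CPM in translocation tumours and 5.27 ± 2.05 CPM in Rosa26 tumours (-4.91, adjusted p = 0.0390). Grhl1 was not called (-2.01, adjusted p = 0.105). Of 6 mesenchymal transition factors edgeR called 0, with 1 at an unadjusted p under 0.05, and DESeq2 called 1. Zeb1 averaged 86.2 and 73.7 CPM, and Zeb2 119 and 116 CPM, in translocation and Rosa26 tumours, and Twist2 and Snai1 had log2 fold changes of 4.05 and 0.71.

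Calls of the list genes also depended on the libraries and settings. With the keratinocyte covariate 0 of the 10 called list genes were still called, Krt8 included (edgeR adjusted p = 0.0869). With translocation tumours 2 and 5 summed and Rosa26 tumours 5 and 6 summed, 3 were. With only Rosa26 tumours 5 and 6 summed, 2 of 8 still tested were called, and without translocation tumours 2 and 5 and Rosa26 tumour 4, 6 of 10. In the fits that left out 1 tumour, Krt8 was called in all 11. Krt19, Cdh1, Lama3, Ovol2, Epcam and Zmat3 lost their calls without Rosa26 tumour 3 and without Rosa26 tumour 6, with adjusted p up to 0.0968, and these 6 genes lost them also without translocation tumour 1. Krt19, Cdh1, Ovol2 and Zmat3 lost theirs without Rosa26 tumour 5 as well. Further losses were those of Krt19 without translocation tumour 2, Ovol2 and Zmat3 without translocation tumour 4, and Ovol2 without Rosa26 tumour 2 or 4. Dsg1b and Esrp1 lost their calls without translocation tumour 1 (adjusted p = 0.0539 and 0.0551), and the filter on low counts left them untested without Rosa26 tumour 1, 2, 3, 5 or 6.

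**Figure D5:**
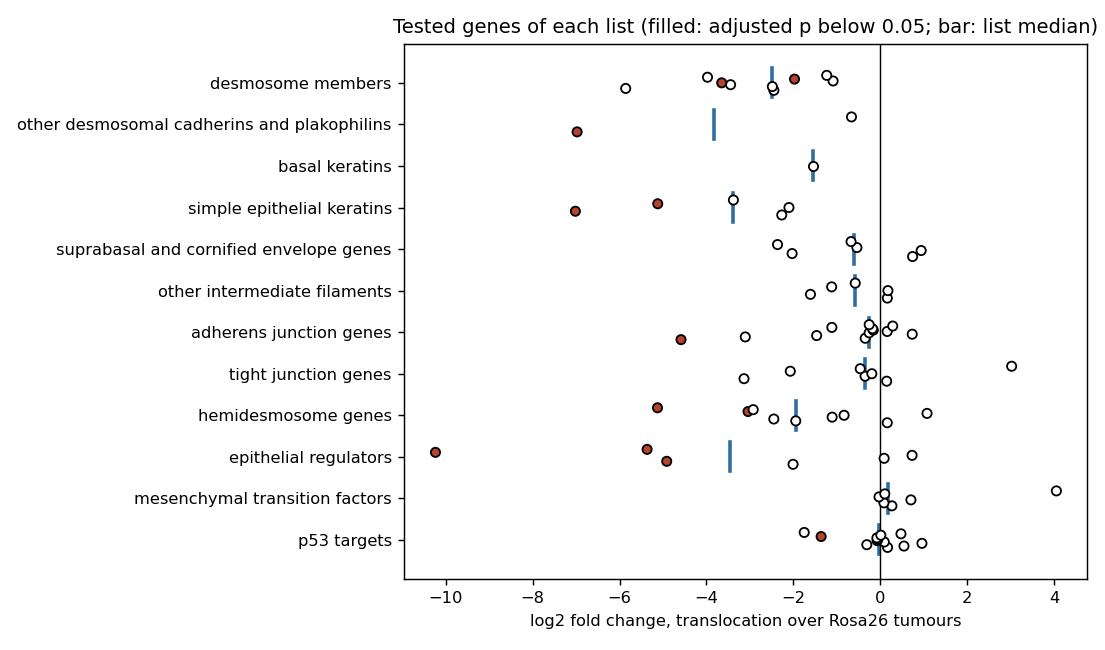
Log2 fold change, translocation over Rosa26 tumours, of each tested gene of the desmosome set and of 11 lists. Each point is a gene, filled where the adjusted p is under 0.05, and the bar is the list median. All 9 desmosome genes and all 5 simple epithelial keratins lie below 0, while the mesenchymal transition factors and p53 targets centre near 0.

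Profiles over the 11 tumours were compared by the root mean square difference of centred log2 CPM among 13924 genes. Nearest to Dsg2 were the chemokine gene Cxcl14 (1.06), the nociceptin precursor Pnoc (1.38), the stathmin gene Stmn2 (1.44), Moxd1 (1.51) and Dmkn (1.58), against a median of 3.56 over all ranked genes. Cxcl14 averaged 440 CPM in translocation tumours and 2555 CPM in Rosa26 tumours, well above Dsg2 in level. Of the set, Pkp1 came nearest, at 1.75 and rank 11. Nearest to Dsg3 was Dsp (1.33), itself of the set, and among the next were the neurotrophin receptor gene Ntrk3 (1.47), the root sheath keratin gene Krt25 (1.56) and the neuropeptide gene Npy (1.60), against a median of 4.17. Dsg2 was at rank 24 for Dsg3 (1.997). With a prior count of 0.5 in place of 2, 3 of the 5 genes nearest to Dsg3 were kept.

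The 4 cadherin genes lie together on chromosome 18 of mm10, between 19960930 and 20604521, a span of 643592 bases. Dsc3 (19960930 to 20002351) and Dsc2 (20030633 to 20059554) are on the minus strand, and Dsg3 (20510274 to 20547459) and Dsg2 (20558074 to 20604521) on the plus strand. Genes on either side of the cluster gave no call. Cdh2, N-cadherin, had a log2 fold change of -0.35 (edgeR adjusted p = 0.868) and B4galt6 of -0.09 (adjusted p = 0.941). Ttr, just beyond Dsg2, reached no more than 1.77 CPM in any translocation tumour and 0.153 CPM in any Rosa26 tumour and was not tested. The other genes of the set are spread over the genome, with Pkp1 on chromosome 1 (135871395 to 135919207), Pkp3 on 7 (141078218 to 141090510), Perp on 10 (18845020 to 18857073), Jup on 11 (100368958 to 100397763), Dsp on 13 (38151294 to 38198577) and Pkp2 on 16 (16213318 to 16272712). Annotated genes overlap Dsg2, Pkp1 and Dsp, and they held 0, 177 and 10 counts over the 12 libraries.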

How the data were processed

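RNA was measured in 11 tumours and 1 skeletal muscle with a stranded kit after ribosomal RNA depletion, per the labels. The authors deposited raw counts, whole numbers without normalization, for 55536 Ensembl genes. Build mm10 and, in no stated order, DESeq2, RSEM, featureCounts, STAR 2.7.5a and cutadapt are named per the submitters' processing notes. How strand was treated in counting is not given in the sources used here. Overlapping genes and close paralogs may therefore share reads. Symbols and positions came from GENCODE M21.

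Genotypes were compared over the 11 tumours with edgeR 4.0.16 under R 4.3.3 (TMM, filterByExpr with minimum count 10, robust quasi-likelihood fit, Benjamini-Hochberg over all tested genes). CPM were scaled by TMM over 12 libraries, and levels per length used the exon union. Log2 CPM took a prior count of 2. DESeq2 1.42.0, other scalings, filters, covariates and leaving out libraries were alternatives. No 2 libraries of a group agreed within sampling noise, with a smallest median chi-square per gene of 5.24 against 0.455. Floors of 3 counts cover counting error only.

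The members and lists were chosen with earlier results of these data known. Named were all members, Krt5, Krt14, Krt15, Krt8, Krt18, up to 4 genes of each list by adjusted p, list genes of at least 50 CPM in a tumour group, and the 5 genes nearest to Dsg2 and to Dsg3. 1 gene that this rule names is not reported here. Genes beside the cadherin cluster were named for their position.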

Additional observations from a re-analysis of the deposited data

Results flagged for a closer look

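In 2 of 20 groups of libraries tested, 1 library stood apart from the others of its group on log2 CPM, and chance flags about 1 group in 20. For Dsp, translocation tumour 4 was highest, at 14.6 CPM against at most 0.233 CPM in the other translocation tumours, and its gap to the next library was 0.778 of the group's range (critical value 0.71). The same tumour had the highest Krt14 of its group, 11.2 CPM. For Dsc3, Rosa26 tumour 4 was lowest, at 0.6999 CPM from 4 counts, and its gap was 0.652 of the range (critical value 0.625). That library was the shallowest Rosa26 library, at 6.82 M counts, and the part of depth in the value was not tested.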

How the results depend on the processing

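All 9 tested desmosome genes had lower estimates in the translocation tumours under all 22 alternative settings. Pkp2, tested in 3 of these, had small positive log2 fold changes, 0.12 with the DESeq2 Wald test, 0.09 with no filter and 0.11 with muscle kept, with adjusted p of 0.958 to 0.962. The calls depended on the setting. The fit used in the report called 460 genes (2.7%) and 2 of the set. The DESeq2 Wald test called 2514 genes (11.6%) and 6 of the set, adding Dsg3, Dsc3, Dsp and Perp. A sex covariate gave 2534 genes (14.9%) and 1 of the set, and a skeletal muscle covariate 284 (1.67%) and 1. No filter gave 327 (0.902%) and 1, and keeping muscle in the fit 360 (1.62%) and 1. edgeR called 0 of the set with the keratinocyte covariate (15 genes, 0.0881%) and with translocation tumours 2 and 5 summed and Rosa26 tumours 5 and 6 summed (141, 0.814%). It also called 0 with only Rosa26 tumours 5 and 6 summed (91, 0.545%, chosen after seeing the data) and without translocation tumours 2 and 5 and Rosa26 tumour 4 (619, 3.45%). In these 4 fits, 5, 5, 6 and 5 of the set had an unadjusted p under 0.05, against 17.5%, 24.3%, 20.9% and 24.1% of all genes. In the fit used in the report it was 7 of 9, against 24.8% of all genes. With the sex covariate it was 3 of 9, against 32.9% of all genes. Females were 4 of 5 translocation tumours and 2 of 6 Rosa26 tumours, so sex and genotype are partly confounded. Leaving out 1 tumour gave 63 to 744 genes (0.378% to 4.27%) and 0 to 4 of the set. The cause of these changes was not tested. Over all these alternatives the adjusted p ran from 7.6e-05 to 0.141 for Jup, from 0.000215 to 0.154 for Pkp1 and from 0.000555 to 0.138 for Dsg3. No paired analysis was possible because the labels give no replicate numbers shared between the groups. Depth limits the lowest values, since 3 counts were 1.31 CPM in translocation tumour 2 and 0.525 CPM in Rosa26 tumour 4.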
